A study of Mus musculus with 2 samples.

Results

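The 6 keratin genes Krt5, Krt7, Krt8, Krt18, Krt19 and Krt20 were taken by name from a single-cell RNA count matrix of mouse kidney with 21855 genes, 19 of which are keratins. Keratins build the intermediate filaments of epithelial cells, and a filament needs a type I keratin paired with a type II keratin. Krt18, Krt19 and Krt20 are type I and Krt5, Krt7 and Krt8 are type II. Krt8 and Krt18 are the usual pair of simple epithelia such as kidney tubule, Krt5 marks the basal layer of the urothelium that lines the renal pelvis, and Krt20 marks its surface cells and has also been described in injured tubule.

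The matrix holds 1 library of wild type mouse kidney with folic acid (FA)-induced nephropathy and 1 library of wild type control kidney, whose columns were matched by the letter C in their names. Folic acid at a high dose injures kidney tubules. The sources used here do not give the dose, the time after it, the vehicle, the age or the number of animals per library. The libraries also differ in sex-linked RNA: Xist stood at 1250 CPM (counts scaled to a fixed total of all UMIs in a library or class) in FA and 0.297 CPM in control, and Ddx3y was at 0 CPM in FA and 80.1 CPM in control, and sex therefore cannot be told apart from treatment. After filtering, 13502 FA cells with a median of 3194.5 unique molecular identifiers (UMIs, each a counted RNA molecule) and 5807 control cells with a median of 4837 UMIs remained. The libraries share 54 barcode sequences, 26 of them among the kept cells. Cells were grouped without any keratin gene and named from markers that include no keratin. Each group is a single library, so no difference has a replicate check and none was tested. The 95% intervals given below cover counting error only, and a keratin is called higher or lower where the ratio of its CPM, FA over control, passes 1.5 or its inverse with at least 20 UMIs over both libraries.

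Krt5, Krt7, Krt8 and Krt18 lie on chromosome 15, and Krt19 and Krt20 lie on chromosome 11 (GENCODE M21, GRCm38). Krt8 spans chr15:101996698-102004482 on the minus strand and Krt18 spans chr15:102028180-102032027 on the plus strand, with 23697 bases between them, so the pair points away from each other. Krt7 spans chr15:101411043-101430313 on the plus strand and Krt5 chr15:101707070-101712898 on the minus strand. Krt20 spans chr11:99428403-99438150 and Krt19 chr11:100140810-100148665, both on the minus strand. On the opposite strand, Krt8 shares 101 exon bases with Gm36026, Krt7 shares 77 with Gm671 and Krt5 shares 129 with Gm44323. The sources used here do not say whether counting used the strand, so reads of those stretches cannot be assigned to one strand.

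RefSeq promoter windows (GRCm38.p6) were matched for 5 of the 6 keratins, and 4 are shown because the results below turn on their genes: the Krt8 and Krt18 pair, which part in the proximal tubule, Krt5, which was found almost entirely in urothelial-like cells, and Krt20, whose cells differ between the libraries. Each stretch lies within the 250 bases before the RefSeq start and leaves out bases that GENCODE places in an exon of the gene, and capitals mark a TATAAA motif. The stretches are chr11:99438154-99438403 (minus strand) for Krt20, chr15:101712906-101713155 (minus strand) for Krt5, chr15:102027966-102028179 (plus strand) for Krt18 and chr15:102004483-102004592 (minus strand) for Krt8.
Krt20: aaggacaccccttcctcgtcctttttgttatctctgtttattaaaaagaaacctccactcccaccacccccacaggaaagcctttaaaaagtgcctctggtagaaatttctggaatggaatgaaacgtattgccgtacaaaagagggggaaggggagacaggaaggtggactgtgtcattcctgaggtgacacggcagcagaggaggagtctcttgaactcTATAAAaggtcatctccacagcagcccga
Krt5: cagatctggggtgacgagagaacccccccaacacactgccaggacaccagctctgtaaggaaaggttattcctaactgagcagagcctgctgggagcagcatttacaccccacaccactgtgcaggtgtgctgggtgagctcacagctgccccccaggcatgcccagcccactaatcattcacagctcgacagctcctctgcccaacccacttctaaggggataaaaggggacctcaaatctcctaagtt
Krt18: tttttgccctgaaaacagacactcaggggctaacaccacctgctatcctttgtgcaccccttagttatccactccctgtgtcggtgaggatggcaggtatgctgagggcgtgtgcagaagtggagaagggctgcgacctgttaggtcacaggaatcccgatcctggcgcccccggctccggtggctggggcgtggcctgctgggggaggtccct
Krt8: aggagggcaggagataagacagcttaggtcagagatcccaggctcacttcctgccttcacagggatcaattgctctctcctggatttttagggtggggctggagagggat
The motifs searched on both strands of the full 250 bases were TATAAA (the core of the TATA box), the GC box bound by Sp1, written GGGCGG, and the site bound by AP-1, written TGANTCA. No keratin window held more than 1 of these 3 motifs. TATAAA was found at 1 place among the 5 windows, in Krt20, 29 to 24 bases before the start, and 12.4% of all 32851 promoter windows held it. GGGCGG was found in the Krt7 window alone, at 4 places, and in 32.7% of all windows. TGANTCA was in none of the 5 keratin windows and in 6.75% of all windows.

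Over all kept cells, Krt20 was the single keratin of the 6 that was called higher in FA, and Krt7 and Krt18 were called lower. Krt20 stood at 22.5 CPM in FA and 3.93 CPM in control, a ratio of 5.72 (95% interval 4.86 to 6.78). Krt7 stood at 66.5 CPM in FA and 115.5 CPM in control (ratio 0.575, interval 0.552 to 0.600), and Krt18 at 59.4 CPM in FA and 102.8 CPM in control (0.578, 0.553 to 0.604). Of all 18167 genes measured, 20% were called higher and 27.9% lower by the same rule, so 1 of 6 higher and 2 of 6 lower is close to that background. Krt5, Krt8 and Krt19 passed no call: Krt5 had 23.5 CPM in FA and 33.0 in control, Krt8 had 96.8 CPM in FA and 112.3 in control, and Krt19 had 59.8 CPM in FA and 88.8 in control. The median log2 ratio was -0.53 over the 6 keratins and -0.08 over all genes. Over 10 other settings the call changed in 4 for Krt7, 5 for Krt18, 4 for Krt5, 3 for Krt19, 2 for Krt8 and 0 for Krt20. Barcodes removed as likely doublets held Krt18 at 191 CPM in FA and 122 CPM in control. They held Krt8 at 223 CPM in FA and 131 CPM in control.

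Some of these totals rest on few cells. The urothelial-like cells, 94 of 13502 cells in FA and 72 of 5807 in control, held 97.4% of all Krt5 UMIs in FA and 99.5% in control, 93.3% of Krt19 in FA and 99.3% in control, and 55.1% of Krt18 in FA and 80.4% in control. For Krt7 the share was 39.5% in FA and 60.2% in control, for Krt8 16.3% in FA and 38.5% in control, and for Krt20 0.206% in FA and 95.6% in control. Without them, the whole-library log2 ratio of Krt18 turned to 0.39, that of Krt5 to 1.78, that of Krt19 to 2.73 and that of Krt8 to 0.21, while Krt7 stood at -0.21 and Krt20 at 7.0. Without immune-like cells and unnamed clusters the log2 ratio was positive for all 6, at 0.22 for Krt7, 0.24 for Krt18, 0.51 for Krt8, 0.51 for Krt19, 0.60 for Krt5 and 2.89 for Krt20. The libraries differ in cell makeup, with proximal tubule-like cells making up 6.07% of FA cells and 38.2% of control cells, and the part of makeup in these ratios was not tested. The comparisons that follow are therefore made within classes.

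**Figure D1:**
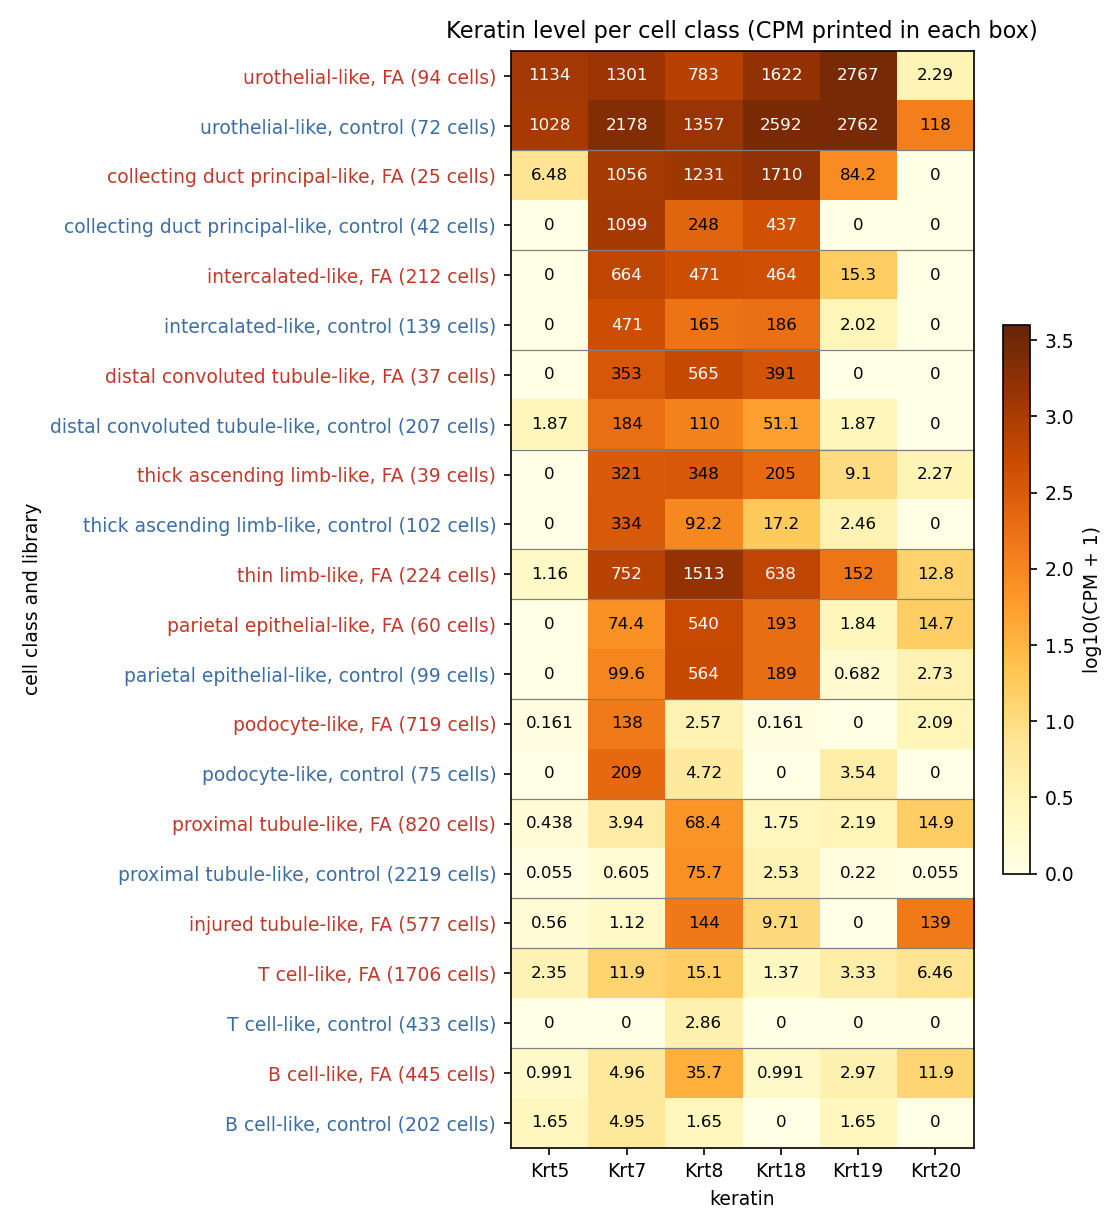
CPM of the 6 keratins (columns) in each cell class and library (rows, FA above control, with cell numbers), coloured by log10(CPM + 1). Urothelial-like cells carry Krt5 and Krt19 at over 1000 CPM in both libraries, while podocyte-like cells carry no keratin of the 6 but Krt7 above 100 CPM and proximal tubule-like cells carry Krt8 with little Krt18.

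The urothelial-like cells held 5 of the keratins at high levels in both libraries, and Krt20 at a lower level, mainly in the control library. Of the 6 keratins, 4 were called lower and none higher in FA there, the lower ones being Krt7, Krt8, Krt18 and Krt20, against 11.2% of 9325 measured genes called higher and 19.5% called lower. Krt19, a type I keratin of all urothelial layers, stood at 2767 CPM in FA (interval 2677 to 2858) and 2762 CPM in control (2672 to 2854), a ratio of 1.0 (0.956 to 1.05). Krt5, of the basal and intermediate layers, stood at 1134 CPM in FA and 1028 CPM in control (ratio 1.10, 1.02 to 1.19). The ratio interval spans 1 for Krt19 and lies above 1 for Krt5, and neither ratio passes a call.

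Krt7 had 1301 CPM in FA urothelial-like cells and 2178 CPM in control ones (ratio 0.597, 0.562 to 0.635). Krt8 had 783 CPM in FA and 1357 CPM in control (0.577, 0.534 to 0.624). Krt18 had 1622 CPM in FA and 2592 CPM in control (0.626, 0.593 to 0.661). Single cells overlapped widely: per-cell Krt18 ran from 0 through a median of 1417 to 5528 CPM in FA and from 417 through 1954 to 6790 CPM in control. With each cell weighed the same, the Krt18 log2 ratio was -0.56 and passed no call.

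Krt20 separated the libraries most. It had 3 UMIs in 2 of 94 FA cells and 152 UMIs in 21 of 72 control cells, 2.30 CPM in FA (0.473 to 6.71) and 118 CPM in control (99.8 to 138), a ratio of 0.0195 (0.00397 to 0.0580). Median depth was similar, at 12345 UMIs per FA cell and 14325.5 per control cell. Of the 21 control cells with Krt20, 13 had UMIs of all 4 uroplakins, the membrane proteins of urothelial surface cells, and 20 also had Krt5. Of the 51 control cells without Krt20, 17 had all 4 uroplakins and 47 had Krt5, so Krt5 was about as common in both. Median depth was 18329 UMIs in control cells with Krt20 and 12633 in those without, and its part was not tested. The most Krt20 UMIs in 1 cell was 26.

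The uroplakins moved with these differences. The summed level of the 8 urothelial markers was 1423 CPM in FA and 6000 CPM in control, with all 8 above 0 in both libraries, and all 4 uroplakins were detected in 3 of 94 FA cells and 30 of 72 control cells. Among cells with at most 2 uroplakins, 83 in FA and 32 in control, Krt7 stood at 1249 CPM in FA and 1363 CPM in control, and Krt18 at 1503 CPM in FA and 1614 CPM in control, neither of which passes 1.5-fold. Krt8 there stood at 666 CPM in FA and 1003 CPM in control, which still passes it. Krt19 there stood at 2531 CPM in FA and 1944 CPM in control, and Krt5 at 1193 CPM in FA and 1341 CPM in control. Krt20 there had 2 UMIs in FA and 3 in control, a log2 ratio of -2.05 with an interval of -5.63 to 1.07 that spans 0, against -5.68 over the whole class. The part of the uroplakin difference in the whole-class ratios was not tested.

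Within each library, Krt7, Krt8, Krt18 and Krt19 were higher in cells with more uroplakins, and Krt5 was lower. In control, Krt18 stood at 1316 CPM in cells with 0 or 1 uroplakin, 1802 CPM with 2 or 3 and 3391 CPM with 4. In FA it stood at 1433 CPM, 1656 CPM and 3622 CPM in the same order, the last from only 3 cells. Krt20 in control stood at 5.6 CPM, 57.7 CPM and 182.5 CPM in that order. Depth moved with this order, with medians of 11661, 13881 and 20985 UMIs per FA cell and 10916, 13359 and 19827.5 UMIs per control cell, and its part was not tested.

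**Figure D2:**
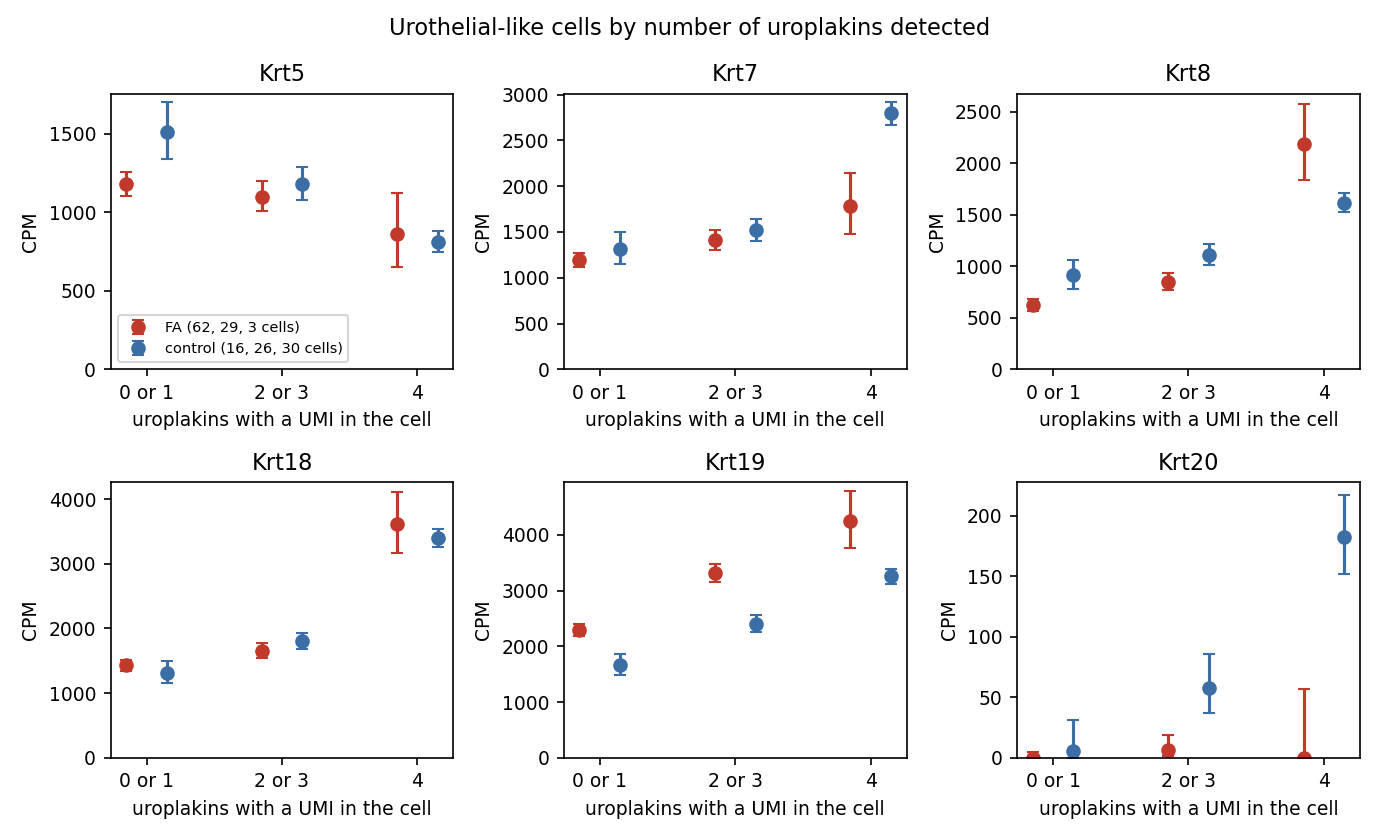
CPM of each keratin (y axis) in urothelial-like cells with 0 or 1, 2 or 3, or 4 uroplakins detected (x axis), FA in red left of control in blue, with 95% Poisson intervals. Krt20 reaches 182.5 CPM in control cells with 4 uroplakins and stays at or under 6.34 CPM in every FA stratum. The FA stratum with 4 uroplakins holds only 3 cells, none with a Krt20 UMI, too few to fix a level there.

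Of 5 other keratins with enough UMIs in these cells and a UMI in control, 2 were called higher and 2 lower, and all 5 are given here. Of all 9325 genes measured in these cells, 11.2% were called higher and 19.5% lower. Krt15, a type I keratin of basal cells, stood at 4178 CPM in FA and 1699 CPM in control (ratio 2.46, 2.34 to 2.59), and Krt23 at 93.3 CPM in FA and 34.9 CPM in control (2.68, 1.89 to 3.86). Krt17, a type I keratin induced in stressed epithelia, stood at 13.0 CPM in FA and 124.7 CPM in control, where 1 cell held 76 of its 161 UMIs. Krt10 stood at 19.1 CPM in FA and 31.8 CPM in control (0.602, 0.351 to 1.01), a called ratio whose interval spans 1. Krt14, the basal partner of Krt5, stood at 895 CPM in FA and 829 CPM in control and passed no call. Krt4 had 40 UMIs in these cells in FA and none in any kept control cell, so no ratio is given. Before differently spelled names were joined, 2543 gene names had UMIs in FA alone and 1255 in control alone. For Krt4 a name missing from the control counts therefore cannot be told apart from absent RNA.

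In the distal nephron and collecting duct, Krt8 and Krt18 were higher in FA while Krt7 was within 1.5-fold in 3 of 4 classes. Of these 4 classes, only intercalated-like cells have a share of all genes called to set beside the keratins. Intercalated-like cells, the acid and base secreting cells of the collecting duct, had enough cells for a ratio, with 212 in FA and 139 in control. Krt8 stood at 471 CPM in FA (410 to 538) and 165 CPM in control (141 to 193), a ratio of 2.85 (2.31 to 3.51). Krt18 stood at 464 CPM in FA and 186 CPM in control (2.49, 2.04 to 3.05), and Krt7 at 664 CPM in FA and 471 CPM in control (1.41, 1.22 to 1.63), which passes no call. Of the 3 keratins with enough UMIs, 2 were thus called higher. Of 7526 genes measured in these cells, 23% were called higher and 18.6% lower.

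The intercalated Krt8 difference was the least steady of these. A single FA cell held 57 of the 215 Krt8 UMIs, and without the top cell of each library the ratio was 2.33 (1.85 to 2.94). With cells of at least 1000 UMIs and at most 20% mitochondrial UMIs, 91 in FA and 93 in control, it was 1.20 for Krt8 and passed no call, and 1.97 for Krt18. The median FA cell had 1107.5 UMIs and the median control cell 5129, and thinned to 1000 UMIs, 19.7% of FA cells (12.9 to 28.0) and 13.0% of control cells (7.75 to 19.96) had Krt8, against 32.5% of FA cells and 46.0% of control cells unthinned. Thinning left out 95 FA cells and 8 control cells, and the 2 thinned intervals overlap. The median mitochondrial share of UMIs was 0.489% in FA and 13.7% in control intercalated-like cells, and CPM counts mitochondrial UMIs in its total. The 7 intercalated markers summed to 11830 CPM in FA and 11920 CPM in control, but not alike: Atp6v1g3 stood at 9153 CPM in FA and 6535 CPM in control, Slc4a1 at 72.3 CPM in FA and 758 CPM in control, Slc26a4 at 572 CPM in FA and 1525 CPM in control, and Aqp6 at 379 CPM in FA and 1272 CPM in control. The 9 injury markers summed to 29900 CPM in FA and 1986 CPM in control, of which Spp1 alone was 28540 CPM in FA and 1658 CPM in control. Over 11 other settings, which include nuclear-encoded UMIs as the total, the intercalated log2 ratio lay between 0.267 and 0.777 for Krt7. It lay between 0.263 and 2.71 for Krt8 and between 0.975 and 1.88 for Krt18. The part of the mitochondrial share and of these marker differences in the keratin levels was not tested.

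The other distal classes had under 50 cells in at least one library, so their ratios, computed after the levels were seen, are given as values only. Collecting duct principal-like cells, the water-reabsorbing cells with Aqp2, numbered 25 in FA and 42 in control. Krt8 stood there at 1231 CPM in FA and 248 CPM in control, Krt18 at 1710 CPM in FA and 437 CPM in control, and Krt7 at 1056 CPM in FA and 1099 CPM in control. Krt19 had 13 UMIs in FA and none in control, where the count of 0 allows up to 7.36 CPM (3 counts).

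Thick ascending limb-like cells, 39 in FA and 102 in control, had Krt8 at 348 CPM in FA and 92.2 CPM in control. Krt18 stood at 205 CPM in FA and 17.2 CPM in control, and Krt7 at 321 CPM in FA and 334 CPM in control. In distal convoluted tubule-like cells, 37 in FA and 207 in control, Krt8 stood at 565 CPM in FA and 110 CPM in control, Krt18 at 391 CPM in FA and 51.1 CPM in control, and Krt7 at 353 CPM in FA and 184 CPM in control. Leaving out the top cell of each library kept Krt8 between 3.36 and 5.02 times control in these 3 classes and Krt18 between 3.53 and 16.3 times. With the stricter cell filter no FA cell was named distal convoluted tubule-like or collecting duct principal-like, and with doublets kept 15 FA cells were named distal convoluted tubule-like, so these levels had no value there. The injury markers summed to 66160 CPM in FA and 3111 CPM in control in thick ascending limb-like cells, and to 43320 CPM in FA and 5088 CPM in control in distal convoluted tubule-like cells. Of these sums Spp1 was 58430 CPM in FA and 2839 CPM in control in thick ascending limb-like cells, and 34040 CPM in FA and 2961 CPM in control in distal convoluted tubule-like cells. The class's own markers summed to 18510 CPM in FA and 32530 CPM in control in thick ascending limb-like cells, and to 5165 CPM in FA and 19530 CPM in control in distal convoluted tubule-like cells, where Pvalb stood at 10.4 CPM in FA and 741 CPM in control. In collecting duct principal-like cells the injury markers summed to 23110 CPM in FA and 1352 CPM in control. The median mitochondrial share was 4.26% in FA and 16.5% in control thick ascending limb-like cells. It was 26.3% in FA and 24.8% in control distal convoluted tubule-like cells, and 7.71% in FA and 5.84% in control collecting duct principal-like cells. The part of these markers and shares in the keratin levels was not tested.

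**Figure D3:**
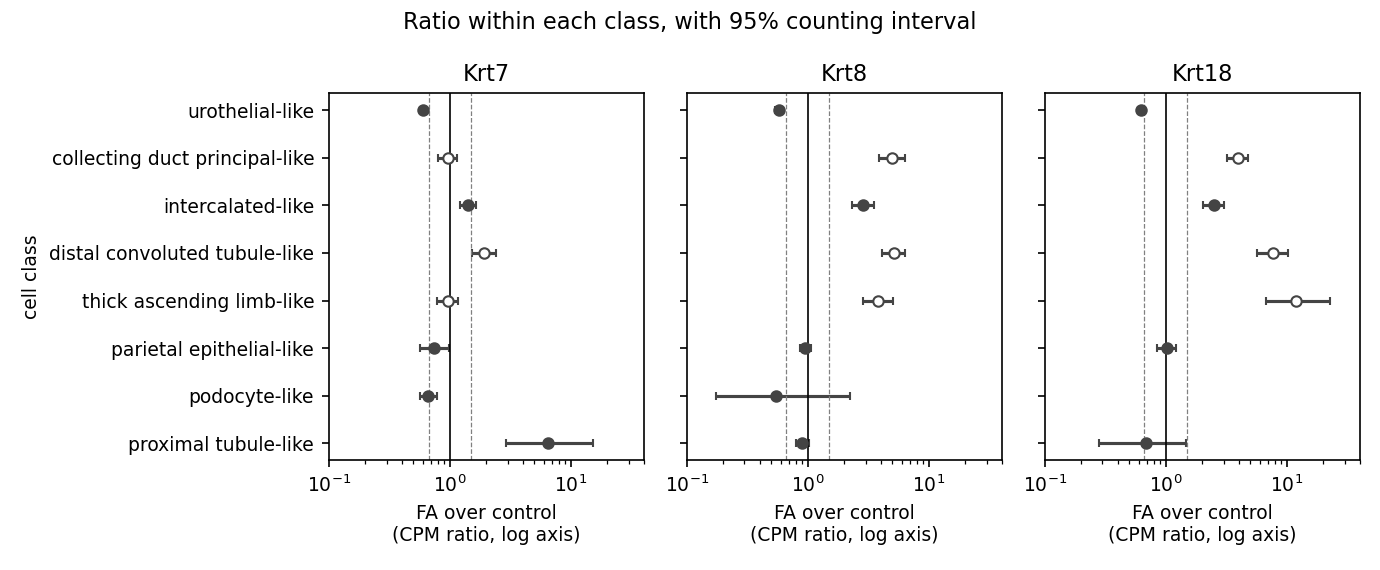
CPM ratio, FA over control, on a log axis for Krt7, Krt8 and Krt18 in 8 classes, with 95% counting intervals; filled circles have at least 50 cells in each library, open circles fewer, and dashed lines mark 1.5-fold. Krt8 and Krt18 lie right of 1.5 in the collecting duct, intercalated, distal convoluted tubule and thick ascending limb classes and left of 1 in urothelial-like cells.

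A cluster of 224 FA cells and 10 control cells was named from thin limb markers, which summed to 2198 CPM in FA but lay in few cells, with Slc14a2 in 17.9% of the FA cells and Fst in 10.3%. The 9 injury markers summed to 22490 CPM there, of which Spp1 was 19460 CPM, with Clu in 61.6% of cells, Dcdc2a in 55.4% and Lcn2 in 45.1%. The class held the highest Krt8 level of the classes with at least 20 cells, 1513 CPM (1432 to 1598), with Krt7 at 752 CPM, Krt18 at 638 CPM and Krt19 at 152.5 CPM. These cells supplied 20.7% of all Krt8 UMIs in the FA library. Too few control cells fell here for a comparison. The class was found by dividing 1 cluster, the one first named distal convoluted tubule, which was decided with the data in view. Under 6 of the other settings no or under 20 FA cells took its name.

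The 2 glomerular cell classes held different keratins. In parietal epithelial-like cells, the lining of Bowman's capsule, 60 in FA and 99 in control, Krt8 stood at 540 CPM in FA and 564 CPM in control (ratio 0.957, 0.860 to 1.07). Krt18 stood at 193 CPM in FA and 189 CPM in control (1.02, 0.849 to 1.23), and Krt7 at 74.4 CPM in FA and 99.6 CPM in control (0.747, 0.562 to 0.987). The Krt7 log2 ratio there was -1.62 with cells gated on markers, which passes the call, and 0.084 with each cell weighed the same. Of 10159 genes measured there, 14.2% were called higher and 27.1% lower. With the stricter cell filter the Krt8 log2 ratio there was -1.01 and the Krt18 one -0.56. Krt20, the 1 keratin of 4 measured that passed a call, was called higher at 16 UMIs in FA and 4 in control, but 1 FA cell held 11 of the 16.

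Podocyte-like cells, the filter cells of the glomerulus, 719 in FA and 75 in control, had Krt7 with hardly any Krt8 or Krt18. Krt7 stood at 138 CPM in FA (129 to 148) and 209 CPM in control (179 to 242), a ratio of 0.661 (0.562 to 0.782), just past the call, which 2 of the 10 other settings did not pass. There 12.6% of 10573 genes were called lower and 13.5% higher. Thinned to 1000 UMIs, 12.4% of FA podocyte-like cells and 20.8% of control ones had Krt7, against 1.45% of FA T cell-like cells and 0 of 422 control ones, which allows up to 0.711%. Unthinned, 60.2% of FA podocyte-like cells and 74.7% of control ones had Krt7. The median depth before thinning was 7161 UMIs in FA podocyte-like cells and 8140 in control ones, and 2895 in FA T cell-like cells and 3044.5 in control ones. Krt8 had 2.57 CPM in FA and 4.72 CPM in control, a called ratio whose interval of 0.175 to 2.24 spans 1, and Krt18 a single UMI in FA and none in control. Podocyte markers summed to 17210 CPM in FA and 17200 CPM in control.

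Proximal tubule-like cells, which reabsorb most of the filtrate, had Krt8 RNA with almost no Krt18 RNA. Krt8 stood at 68.4 CPM in FA (61.0 to 76.4) and 75.7 CPM in control (71.8 to 79.8), a ratio of 0.903 (0.796 to 1.02). In cells that should lack keratin, Krt8 stood at 35.7 CPM in FA (25 to 49.4) and 1.65 CPM in control B cell-like cells, and at 15.1 CPM in FA and 2.86 CPM in control T cell-like cells. Thinned to 1000 UMIs, Krt8 was in 5.39% of FA (3.94 to 7.17) and 7.27% of control proximal tubule-like cells, in 2.54% of FA (1.27 to 4.50) and 0.516% of control B cell-like cells, and in 1.51% of FA and 0.237% of control T cell-like cells. Unthinned, the shares were 23.2% of FA and 36.5% of control proximal tubule-like cells, 7.19% of FA and 0.495% of control B cell-like cells, and 4.34% of FA and 0.924% of control T cell-like cells. Median depth before thinning was 4289.5 UMIs in FA and 6990 in control proximal tubule-like cells, and 1965 in FA and 2478 in control B cell-like cells. Krt18 had 8 UMIs in 820 FA cells and 46 UMIs in 2219 control cells. Different clusters hold the class in the 2 libraries, cluster 8 in FA and clusters 0, 17 and 23 in control, and Krt8 ran at 68.2 CPM in FA cluster 8 and at 65.0, 131.8 and 66.5 CPM in the control clusters in that order. The 9 injury markers summed to 37010 CPM in FA and 1104 CPM in control, and the 13 proximal tubule markers to 12050 CPM in FA and 22780 CPM in control, with Slc7a13 at 0 in FA and Havcr1 at 0 in control. Of 12973 genes measured in the class, 24.7% were called higher and 15.8% lower, and of the 4 keratins measured Krt7 and Krt20 were called higher. With no cell filter, with doublets kept or at the lower clustering resolution, under 10 FA cells took this name.

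Krt20 was all but absent from control proximal tubule-like cells, with 1 UMI in 2219 cells, and had 68 UMIs in the 820 FA cells, 14.9 CPM in FA (11.6 to 18.9) and 0.0550 CPM in control. The ratio is 271 with an interval of 47.0 to 10860, and rests on 1 control UMI, and 1 FA cell held 15 of the 68. The FA level is near that of FA B cell-like cells, which should lack keratin, at 11.9 CPM (6.15 to 20.8), and above FA T cell-like cells at 6.46 CPM (4.45 to 9.07). Thinned to 1000 UMIs, 1.47% of FA proximal tubule-like cells, 1.15% of FA B cell-like cells and 0.881% of FA T cell-like cells had Krt20, at median depths before thinning of 4289.5, 1965 and 2895 UMIs, and these 3 intervals overlap. Unthinned, the shares were 5.37%, 2.70% and 1.88% in that order. Of the FA proximal cells, 82 had Havcr1 RNA, the kidney injury molecule, and Krt20 was in 19.5% of these (11.6 to 29.7) and in 3.79% of the 738 without (2.54 to 5.44), at median depths of 5567.5 and 4120.5 UMIs. Krt7 was also called higher in this class, at 3.94 CPM in FA and 0.605 CPM in control, below the 11.9 CPM of FA T cell-like cells.

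The injured tubule-like cells, 577 in FA and 1 in control, held most of the Krt20. They are led by Vcam1, Havcr1, C3 and Spp1, and their 9 injury markers summed to 72780 CPM, against 37010 CPM in FA proximal tubule-like cells, mostly Spp1 at 68080 CPM in the injured class and 35960 CPM in the proximal one. Havcr1 stood at 365 CPM in the injured class and 59.6 CPM in FA proximal tubule-like cells, Vcam1 at 1099 CPM and 88.5 CPM, and C3 at 2685 CPM and 758 CPM in the same order. Krt20 stood at 139 CPM (129 to 150), 745 UMIs that made up 51.1% of the library's Krt20, and Krt8 at 144 CPM (134 to 155). Krt20 was in 38.0% of these cells (34.0 to 42.1), and in 12.0% of them thinned to 1000 UMIs. Krt18 stood at 9.71 CPM, Krt7 at 1.12 CPM, and Krt19 had no UMI, which allows up to 0.560 CPM (3 counts).

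Within the injured tubule-like cells, 45.7% of the 357 cells with Havcr1 had Krt20 (40.4 to 51.0), against 25.5% of the 220 without (19.8 to 31.8), at median depths of 8238 and 5871.5 UMIs. Krt8 was in 51.8% of those with Havcr1 and 48.6% of those without. Some FA clusters that took no class name also held Krt20. They were cluster 7, led by Cda, Gsta2 and Fabp1, at 93.3 CPM with Krt8 at 255 CPM, cluster 1, led by Lars2 and ribosomal RNA genes, at 58.0 CPM with Krt8 at 74.1 CPM, and cluster 4, led by the fibrinogen genes Fgg and Fgb and Spp1, at 14.9 CPM with Krt8 at 112 CPM. Over the 10 other settings tried, the Krt20 level of the injured class lay between 60.9 and 146.5 CPM.

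**Figure D4:**
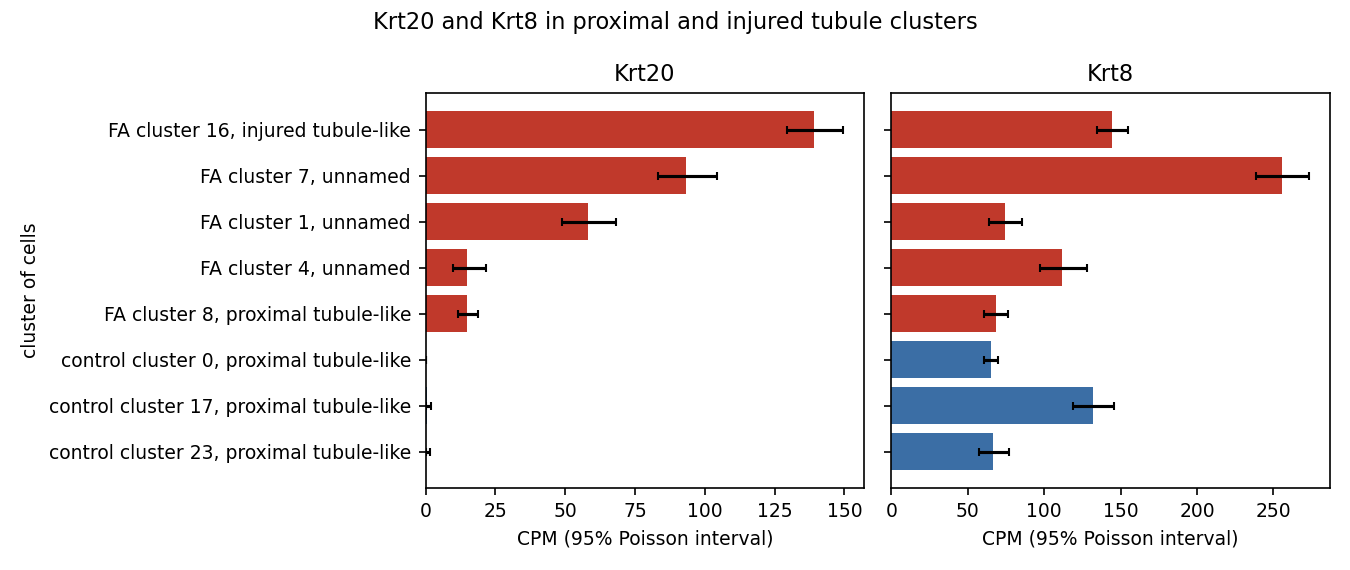
CPM of Krt20 (left) and Krt8 (right) in injured tubule-like and proximal tubule-like clusters and in FA clusters 7, 1 and 4, which took no class name. FA is in red above control in blue, with 95% Poisson intervals. Krt20 reaches 139 CPM in the FA injured cluster and stays under 1 CPM in all 3 control proximal clusters, while Krt8 is between 65.0 and 255 CPM throughout.

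The balance of Krt8 and Krt18 differed between classes more than between libraries. Krt8 made up 97.5% of the Krt8 and Krt18 UMIs of FA proximal tubule-like cells (95.1 to 98.9) and 96.8% of those of control (95.7 to 97.6), and 93.7% in FA injured tubule-like cells. It made up 73.7% in FA and 74.9% in control parietal epithelial-like cells, and 32.6% in FA and 34.4% in control urothelial-like cells. In thick ascending limb-like cells it was 63.0% in FA (56.6 to 69.1) and 84.3% in control (75 to 91.1), intervals that do not overlap. FA cells that should lack keratin also had mostly Krt8. The share was 97.3% in B cell-like cells (36 Krt8 UMIs and 1 Krt18 UMI), 91.7% in T cell-like and 86.7% in macrophage-like cells. It was 71.4% in neutrophil-like, 67.6% in NK cell-like and 87.7% in unnamed FA cells. The part of RNA from outside the cell in the FA shares was not tested. All these shares compare RNA counts of 2 genes with no correction for length.

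**Figure D5:**
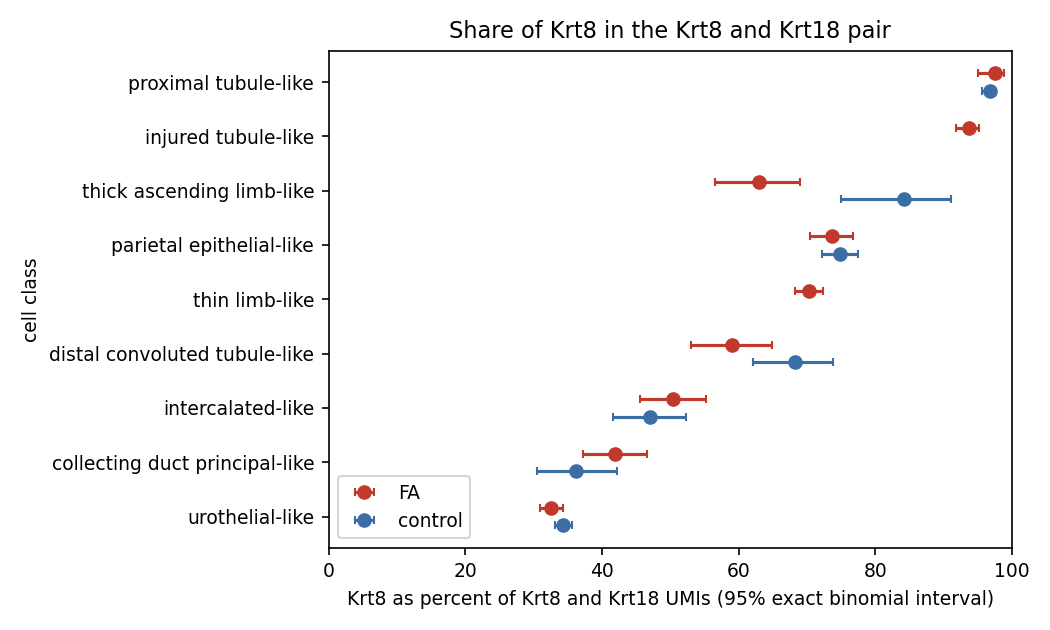
Krt8 as a percent of Krt8 and Krt18 UMIs (x axis) in 9 classes, FA in red above control in blue, with 95% exact binomial intervals. Proximal tubule-like cells lie at 97.5% in FA and 96.8% in control, and urothelial-like cells at 32.6% in FA and 34.4% in control.

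In many proximal tubule-like cells with a Krt8 UMI no type I keratin UMI was counted, which at this depth does not show that the RNA was absent. The type I keratins counted were Krt10, Krt12, Krt14, Krt15, Krt17, Krt18, Krt19, Krt20 and Krt23, without Krt28 and Krt222. Krt10 had the most UMIs of them in this class, 78 in FA and 487 in control. Of the 190 FA proximal tubule-like cells with Krt8, 3.68% had Krt18 (1.49 to 7.44) and 24.7% any of these type I keratins (18.8 to 31.5). Of 810 control cells with Krt8, 2.47% had Krt18 (1.52 to 3.79) and 27.4% any of these type I keratins (24.4 to 30.6). Of the cells without a Krt8 UMI, 0.159% in FA and 1.49% in control had Krt18, and 14.0% in FA and 14.3% in control any type I keratin. Median depth in FA was 6837 UMIs with Krt8 and 3883.5 without, and in control 10525.5 with and 4846 without. In urothelial-like cells, 92 of the 93 FA cells and all 71 control cells with Krt8 had Krt18. Krt20 and Krt8 were found together in 124 of 219 FA injured tubule-like cells with Krt20, 56.6% (49.8 to 63.3), against 46.9% of the 358 cells without Krt20, at median depths of 8281 and 6764 UMIs.

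Genes that keratin filaments work with, other keratins, epithelial transcription factors and tubular injury markers were described by list. Members were named by highest mean level, beside 20% of all genes called higher and 27.9% lower over all kept cells. Of 7 other intermediate filament and lamin genes measured over all kept cells, 5 were called higher and 1 lower (median log2 ratio 1.14), including Vim at 847 CPM in FA and 379 CPM in control (ratio 2.24) and Lmnb1 at 73.0 CPM in FA and 12.3 CPM in control (5.96). Of 13 desmosome and plakin genes, which tie keratins to junctions, 2 were called higher and 7 lower (median -0.59), with Pkp4 at 65.4 CPM in FA and 156 CPM in control (0.420) and Jup at 38.3 CPM in FA and 57.6 CPM in control (0.665). Of 8 other keratins measured, 3 were called higher and 2 lower, and of 11 epithelial transcription factors 1 was higher and 5 lower. None of the 5 keratin-binding genes passed a call, and of 9 epithelial junction genes none was higher and 3 were lower, which is near that background, including Cdh1 at 20.2 CPM in FA and 36.6 CPM in control. Of 8 tubular injury markers, 7 were called higher and none lower, led by Spp1 at 14830 CPM in FA and 915 CPM in control. Sox9, at 23.6 CPM in FA and 2.57 CPM in control, is in this list and is also the transcription factor called higher. Over all kept cells these counts carry the makeup of each library. In urothelial-like cells alone the desmosome list had no member higher and 3 lower of 13, near the 11.2% higher and 19.5% lower of all genes there.

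The genes with the most similar pattern over the 37 class-by-library profiles differed from member to member. By Pearson correlation of log2(CPM + 1) over those profiles, which share libraries and depth, Krt5 was nearest to Serpinb5 (0.97), Foxa1, Mir205hg, Gsdmc2 and Aldh3a1, and Krt19 to Fam3d (0.88), Krt5, Psca, Ncmap and Clca3a2. Krt7 was nearest to the desmosomal gene Dsp (0.94), then Epn3, Mal2 and AA986860. Krt8 was nearest to the tight junction gene Cgn (0.94), then Lad1, Itgb6, Ripk4 and Cnksr1, and Krt18 to the claudin Cldn7 (0.92), then Dsg2, Naaladl2 and Elf3. Krt20 was nearest to Hsd17b2 (0.80), then Serpina10, Ubd, 2200002D01Rik and Prrg4. Foxa1 and Psca are among the markers that named the urothelial-like cells, and Itgb6 among those of the injured tubule-like cells. Krt8 and Krt18 correlated at 0.91 with each other, and Krt20 at 0.35 with Krt8 and 0.22 with Krt18. Where Spearman's rank measure replaced Pearson's, between 0 and 3 of each member's 5 genes were the same.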

How the data were processed

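Droplet single-cell RNA counts of 1 FA kidney library and 1 control library were used. The values are whole-number counts of UMIs per gene and cell, as deposited by the authors. Seurat and mm10 appear in the submitters' processing notes, and no source used here names the counting program or its strand setting. The files held 18997 FA and 9681 control barcodes with 84138607 and 63646459 UMIs in that order.

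Cells with at least 200 genes, 500 UMIs and at most 50% mitochondrial UMIs were kept, 15922 in FA and 6295 in control, and the highest Scrublet scores (0.8% per 1000 barcodes) were removed as doublets, 2420 in FA and 488 in control. Cells were clustered without keratin genes (2000 variable genes, 30 components, 15 neighbours, Leiden resolution 1) and named from keratin-free markers. The cluster first named distal convoluted tubule was divided again at resolution 0.2, which was decided with the data in view. For comparing the libraries, 228 pairs of differently spelled gene names were joined. Counts were summed per class and library to CPM, with exact Poisson, Clopper-Pearson and conditional binomial intervals at 95%, which cover counting error only. Ratios needed 50 cells in each library and levels 20. The distal ratios with fewer cells were added after the data were seen. The ratio step was tested on simulated counts drawn with counting error only. These hold no spread between cells or libraries, so that test cannot show how the intervals fare with such spread.

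The 6 keratins and the gene lists were chosen with earlier results of these data known. Named genes of other lists are the 4 with the highest mean level per list, or fewer of them, and for each keratin the 5 most alike genes, of which 1 each for Krt7 and Krt18 is not reported here. Describing the other keratins of urothelial-like cells was decided after their values were seen. Tools were Python 3.11.15, numpy 2.4.6, scipy 1.17.1, pandas 2.3.3, scanpy 1.11.5, leidenalg 0.10.2 and matplotlib 3.10.9.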

Additional observations from a re-analysis of the deposited data

Results flagged for a closer look

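The ratio of some keratins, FA over control, lay on opposite sides of 1 in different classes, and these differences between classes were not tested. Krt7 stood at 6.52 in proximal tubule-like cells, from 18 UMIs in FA and 11 in control, and 0.597 in urothelial-like cells. Its FA level in proximal tubule-like cells, 3.94 CPM, lies below the 11.9 CPM of FA T cell-like cells. Krt8 stood at 2.85 in intercalated-like cells and 0.577 in urothelial-like cells. Krt18 stood at 2.49 in intercalated-like cells and 0.626 in urothelial-like cells. Krt20 stood at 271 in proximal tubule-like cells, with 1 control UMI, and 0.0195 in urothelial-like cells.

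Barcodes with over 50% mitochondrial UMIs were left out, 2982 in FA and 3380 in control, and they held keratin RNA at a higher level in FA. With nuclear-encoded UMIs as the total, Krt8 stood at 191 CPM in FA and 56.3 in control, Krt7 at 58.0 in FA and 25.1 in control, and Krt18 at 55.4 in FA and 14.6 in control. Krt20 stood at 46.7 in FA and 0.457 in control, Krt19 at 32.9 in FA and 2.74 in control, and Krt5 at 14.7 in FA and 2.74 in control.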

How the results depend on the processing

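With 1 library per group, nothing here separates the treatment from the animal, the sex or the preparation, and the depth of each class limits the low keratins. No paired analysis was possible because each group has 1 library and no test was made. Of the values that answer a comparison, 140 stayed within their counting interval under an alternative, 71 moved beyond it and 4 that had been called turned sign, and the cause was not tested. In 3 settings (no cell filter, doublets kept, resolution 0.5) proximal tubule-like cells of FA numbered under 10 and gave no value.

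The log2 ratio over the whole library was with no cell filter -0.017 for Krt5, -0.29 for Krt7, 0.27 for Krt8, -0.30 for Krt18, -0.11 for Krt19 and 3.04 for Krt20, and with the stricter filter -0.67 for Krt5, -1.10 for Krt7, -0.60 for Krt8, -1.21 for Krt18, -0.71 for Krt19 and 2.07 for Krt20. With doublets kept it was -0.33 for Krt5, -0.59 for Krt7, 0.080 for Krt8, -0.31 for Krt18 and -0.41 for Krt19, and without urothelial-like cells 1.78 for Krt5, -0.21 for Krt7, 0.21 for Krt8, 0.39 for Krt18, 2.73 for Krt19 and 7.0 for Krt20. Without immune-like cells and unnamed clusters it was 0.60 for Krt5, 0.22 for Krt7, 0.51 for Krt8, 0.24 for Krt18, 0.51 for Krt19 and 2.89 for Krt20, and with nuclear-encoded UMIs as the total -0.62 for Krt5, -0.92 for Krt7, -0.34 for Krt8, -0.92 for Krt18 and -0.70 for Krt19. With each cell weighed the same it was -0.16 for Krt7, 0.63 for Krt8, 0.15 for Krt18, -0.32 for Krt19 and 4.32 for Krt20. The log2 ratio in urothelial-like cells was in cells with at most 2 uroplakins -0.17 for Krt5, -0.13 for Krt7, -0.59 for Krt8, -0.10 for Krt18, 0.38 for Krt19 and -2.05 for Krt20, and with each cell weighed the same -0.60 for Krt7, -0.67 for Krt8 and -0.56 for Krt18. With no cell filter it was 0.070 for Krt19, and with cells gated on markers 0.12 for Krt19. In proximal tubule-like cells the log2 ratio was with the stricter filter -0.44 for Krt8, and with cells gated on markers 0.27 for Krt8. With each cell weighed the same it was -0.38 for Krt8. The log2 ratio in intercalated-like cells was with no cell filter 0.78 for Krt7, 2.71 for Krt8 and 1.88 for Krt18, and with doublets kept 0.27 for Krt7. With the stricter filter it was 0.26 for Krt8 and 0.98 for Krt18, and with cells gated on markers 1.0 for Krt8. The log2 ratio in parietal epithelial-like cells was with no cell filter -0.81 for Krt8, and with the stricter filter -1.01 for Krt8 and -0.56 for Krt18. With cells gated on markers it was -0.33 for Krt8 and -0.73 for Krt18, and with each cell weighed the same 0.14 for Krt8 and 0.37 for Krt18. With doublets kept it was 0.45 for Krt18. Krt20 in injured tubule-like cells of FA was 70.8 CPM with no cell filter, 103 with the stricter filter, 60.9 with doublets kept, 86.6 at resolution 0.5, 112 with keratins among the clustering genes and 109 with cells gated on markers. Krt8 in thin limb-like cells of FA was 1766 CPM with each cell weighed the same.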
